A study of Mus musculus with 22 samples.

Results

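The genes of 10 antioxidant and peroxide-clearing enzymes were followed in the brown adipose tissue (BAT) of CPEB2-WT and CPEB2-KO mice: *Sod1*, *Sod2*, *Cat*, *Gpx1*, *Gpx3*, *Gpx4*, *Prdx1*, *Prdx3*, *Txn2* and *Nqo1*. They were chosen by name for the function of their products, with earlier results of these data known. They are 10 of the 55487 Ensembl gene identifiers in the count tables, and all 10 passed the filters on low counts. Messenger RNA was sequenced from 22 animals, each with a library of its own. Without treatment there were 5 WT and 5 KO mice, which the labels give as male and 21 to 25 weeks old. Per the study's text, their food was taken away for some hours before the tissue was collected. In the AAV cohort, male mice received at 16 weeks an injection into the interscapular BAT of an adeno-associated virus (AAV) encoding either GFP or the transcriptional regulator PRDM16, in 30 µl, and tissue was taken 9 weeks later, at 25 weeks. Both genotypes received both viruses, with 3 mice for each combination (WT + AAV-GFP, KO + AAV-GFP, WT + AAV-PRDM16, KO + AAV-PRDM16). CPEB2 is an RNA-binding protein that controls the translation of messenger RNAs carrying cytoplasmic polyadenylation elements. The knockout is in the whole animal, so that tissues other than BAT lack the protein as well, and all mice were kept on a chow diet with 9% fat. The virus was made with the AAV2/8 plasmid, PRDM16 carried a 3Xflag tag, and the promoter that drives GFP or PRDM16 is not given in the sources used here.

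The burning of fuel in brown fat mitochondria yields superoxide as a by-product of electron transport. The superoxide dismutases SOD1, in the cytosol and the space between the mitochondrial membranes, and SOD2, in the mitochondrial matrix, turn it into hydrogen peroxide. Catalase in peroxisomes, the glutathione peroxidases GPX1, GPX3 and GPX4, and the peroxiredoxins PRDX1 and PRDX3 remove the peroxide, and the mitochondrial thioredoxin TXN2 returns electrons to PRDX3. NQO1 is a quinone reductase, and its gene is a classic target of NRF2, the transcription factor of the oxidative stress response.

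The 3 glutathione peroxidase messages share a feature in their reading frames. Each is a selenoprotein message, in which a UGA codon within the frame is read as selenocysteine, the residue at the active site. In the GENCODE M21 transcripts of GRCm38 this codon lies at chr9:108339451-108339453 on the plus strand in *Gpx1* (codon 47 of 201), at chr11:54907256-54907258 on the plus strand in *Gpx3* (codon 73 of 226) and at chr10:80054737-80054739 on the plus strand in *Gpx4* (codon 73 of 197). The 30 bases around it are shown 5′ to 3′, with the recoded codon in capitals, because it sets these 3 genes apart from the other 7:
Gpx1: gtcgcgtctctcTGAggcaccacgatccgg
Gpx3: gtagccagctacTGAggtctgacagaccaa
Gpx4: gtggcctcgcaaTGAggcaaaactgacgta

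The core of the antioxidant response element, TGACNNNGC, was searched on both strands in the RefSeq promoters of GRCm38.p6, which run from 250 bases before to 50 after a gene's start. *Gpx4* has 4 such windows there and each of the other 9 genes has 1. The letters were found in 2 of the 10 genes, each with 1 match on the strand opposite to the gene, at chr4:116685466-116685474 before *Prdx1* and at chr16:90220706-90220714 before *Sod1*. The window of *Nqo1* held no match, and sequence outside the windows was not searched. A match describes letters only, not binding. Of all 32851 promoters searched, 12.39% held a match, and of the 13 windows of these 10 genes 2 did. The 2 matches are shown in capitals as they read on the strand of the gene, with 10 bases on either side:
Prdx1: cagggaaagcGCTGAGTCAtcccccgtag
Sod1: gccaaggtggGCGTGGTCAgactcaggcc

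The hexamer TTTTAT, written as DNA, is a form of the cytoplasmic polyadenylation element. It was present in the 3′ untranslated region of 4 of the 10 genes: 11 times in *Sod2*, whose region is 4963 bases long, and 1 time each in *Cat*, *Prdx1* and *Txn2*. Of 20670 coding genes with such a region, 49.03% held it. The other 6 genes, *Sod1* and the 3 glutathione peroxidases among them, did not hold these letters in the transcript used.

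Library totals were between 55320927 and 162721202 counts for the untreated mice and between 61636889 and 143005309 for the injected ones. In the AAV cohort *Cpeb2* was at 10.5 to 13.96 CPM (counts of a gene scaled to library size) in WT and 4.33 to 5.55 CPM in KO libraries, and *Prdm16* was at 45.9 to 127.8 CPM with AAV-PRDM16 against 23.9 to 40.2 CPM with AAV-GFP. In the untreated cohort *Cpeb2* was at 7.69 to 14.3 CPM in WT, and the library labelled KO mouse 1, at 11.7 CPM, lay within that range, while the other 4 KO libraries were at 2.10 to 5.78 CPM. Although the labels give male mice, 6 untreated libraries (WT mice 3 and 5, KO mice 1, 3, 4 and 5) had a summed level of 4 Y-linked transcripts of at most 1.17 CPM and *Xist* at 104 CPM or more. Skeletal muscle markers summed to between 15.6 and 7055 CPM over the untreated libraries. Brown adipocyte markers summed to between 3994 and 13408 CPM, and none of the 12 was at 0 in any of the 22 libraries. In whole tissue, fewer cells of a type and less RNA per cell cannot be told apart. Each comparison between genotypes in the untreated cohort is one between libraries labelled WT and KO.

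Per length of transcript, *Gpx3* and *Gpx4* were the most abundant of the 10 messages, with medians over all 22 libraries of 650 and 610 CPM per kb, where each cohort was scaled on its own. The ranges of these 2 genes overlapped within all 6 groups, and *Gpx3*, which encodes a secreted enzyme, was the higher one in 13 of 22 libraries. *Sod1* and *Gpx1* followed, at medians of 273 and 269 CPM per kb, and could not be ordered either, since *Sod1* was higher in 13 of 22 libraries. *Cat* had a median of 223 CPM per kb, below *Gpx1* in 16 of 22 libraries and above *Prdx3* in all 22. The genes of mitochondrial enzymes lay lower, with medians of 119 CPM per kb for *Prdx3*, 84.8 for *Txn2* and 80.0 for *Sod2*, and *Prdx1* was at 74.9 CPM per kb. *Sod2* and *Prdx1* overlapped in all 6 groups. This order rests on the length of a single transcript per gene, 5861 bases for *Sod2* and 641 for *Sod1*. Which transcripts the tissue expressed was not tested. In CPM, without the length, the mean of *Sod2* was above that of *Sod1* in every group, as in WT + AAV-GFP (458 against 165 CPM). *Nqo1* came last in every library, at a median of 0.623 CPM per kb and a range from 0.290 to 2.19, and every library held at least 43 of its counts.

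**Figure D1:**
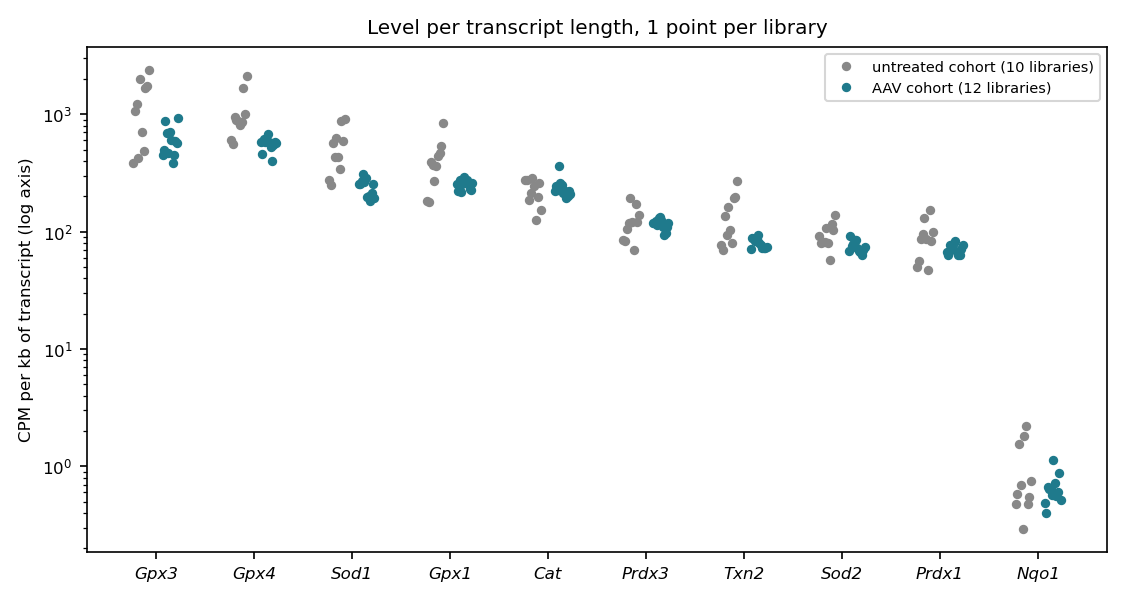
Level of the 10 genes in CPM per kb of transcript, on a log axis, with 1 point per library and the untreated and AAV cohorts side by side. *Gpx3* and *Gpx4* are at the top with medians of 650 and 610 CPM per kb, and *Nqo1* is last, at 0.290 to 2.19 CPM per kb in all 22 libraries.

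The question whether loss of CPEB2 changed these messages was asked first in the AAV cohort, whose libraries of a group lay closer together (common dispersion 0.0887, against 0.312 in the untreated cohort). Averaged over both viruses, *Sod1* was the one gene of the 10 that passed a false discovery rate (FDR) of 0.05 by edgeR, and it was lower in KO. DESeq2 passed *Sod1* and *Cat*, beside 9.93% of all genes to which it gave an adjusted p. *Cat*, *Sod2*, *Txn2* and *Prdx3* were also lower by their values, without passing edgeR's test, while *Gpx1* and *Prdx1* were close to equal and *Nqo1* was higher by value. Of all 18899 genes tested in this contrast 2.18% passed, 1.12% as lower. At an unadjusted p under 0.05, 4 of the 10 were lower (*Sod1*, *Cat*, *Sod2* and *Txn2*), beside 8.76% of all genes, and 0 were higher. None of the 10 was without overlap over the 6 and 6 libraries, beside 2.71% of all genes. The median log2 fold change (log2FC, KO over WT) of the 10 genes was -0.16, with 8 of 10 below 0, and that of all genes tested was 0.01.

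*Sod1* (ENSMUSG00000022982, chr16:90220754-90226329 on the plus strand of GRCm38) encodes the copper- and zinc-dependent superoxide dismutase. The 3 WT mice with AAV-GFP had 162, 162 and 172 CPM, and the 3 KO mice with that virus 127, 130 and 117 CPM. After AAV-PRDM16 the WT mice had 199, 170 and 185 CPM and the KO mice 138, 164 and 124 CPM. Within each virus every KO library lay below every WT library, and across viruses 1 KO library, KO + AAV-PRDM16 mouse 2, reached the range of WT + AAV-GFP. The mean was 133 CPM in the 6 KO and 175 CPM in the 6 WT libraries, so that *Sod1* fell by 23.9% in the fit (log2FC -0.39, SE 0.078, FDR 0.0289 by edgeR's quasi-likelihood test). The exact permutation test within viruses, two-sided, gave p = 0.005, the smallest it can give here.

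The call on *Sod1* was close to the threshold. Without any one of 8 of the 12 libraries (mice 2 and 3 of WT + AAV-GFP, mice 1 and 3 of WT + AAV-PRDM16, mice 2 and 3 of KO + AAV-GFP, mice 1 and 3 of KO + AAV-PRDM16), the FDR rose to between 0.0507 and 0.0855 (edgeR), with log2FC between -0.35 and -0.41. With the mean macrophage marker level as a covariate, the log2FC was -0.31 (SE 0.12, against 0.078 without it) and the edgeR FDR 0.342. This alternative was chosen after the data were seen. The 9 macrophage markers summed to between 60.3 and 130 CPM in WT mice with AAV-GFP, 152 and 377 CPM in KO mice with AAV-GFP, 43.3 and 54.3 CPM in WT + AAV-PRDM16, and 82.2 and 100 CPM in KO + AAV-PRDM16, and none of them was at 0 in any library. All 9 had a log2FC above 0, and 4 passed the test as higher in KO (*Cd163*, *Mrc1*, *Csf1r* and *C1qb*). Within each virus the sums of these markers did not overlap between WT and KO, so the covariate is poorly separated from genotype. The part of the macrophage markers in the result was not otherwise tested. Fibroblast markers moved in the same direction, with 5 of 5 above 0 and *Col3a1* and *Col1a1* called, summing to between 120 and 229 CPM in WT and 210 and 325 CPM in KO libraries, and their part was not tested. Of the 12 brown adipocyte markers 9 had a log2FC below 0 (median -0.20), and *Cox8b* (-0.66, edgeR FDR 0.0189) and *Cidea* (-0.39, FDR 0.0378) fell. They summed to between 4296 and 4891 CPM in KO and 3994 and 6302 CPM in WT mice with AAV-GFP. With AAV-PRDM16 the sums did not overlap, at 4201 to 5218 CPM in KO and 5710 to 7388 CPM in WT, and their part in the *Sod1* result was not tested.

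**Figure D2:**
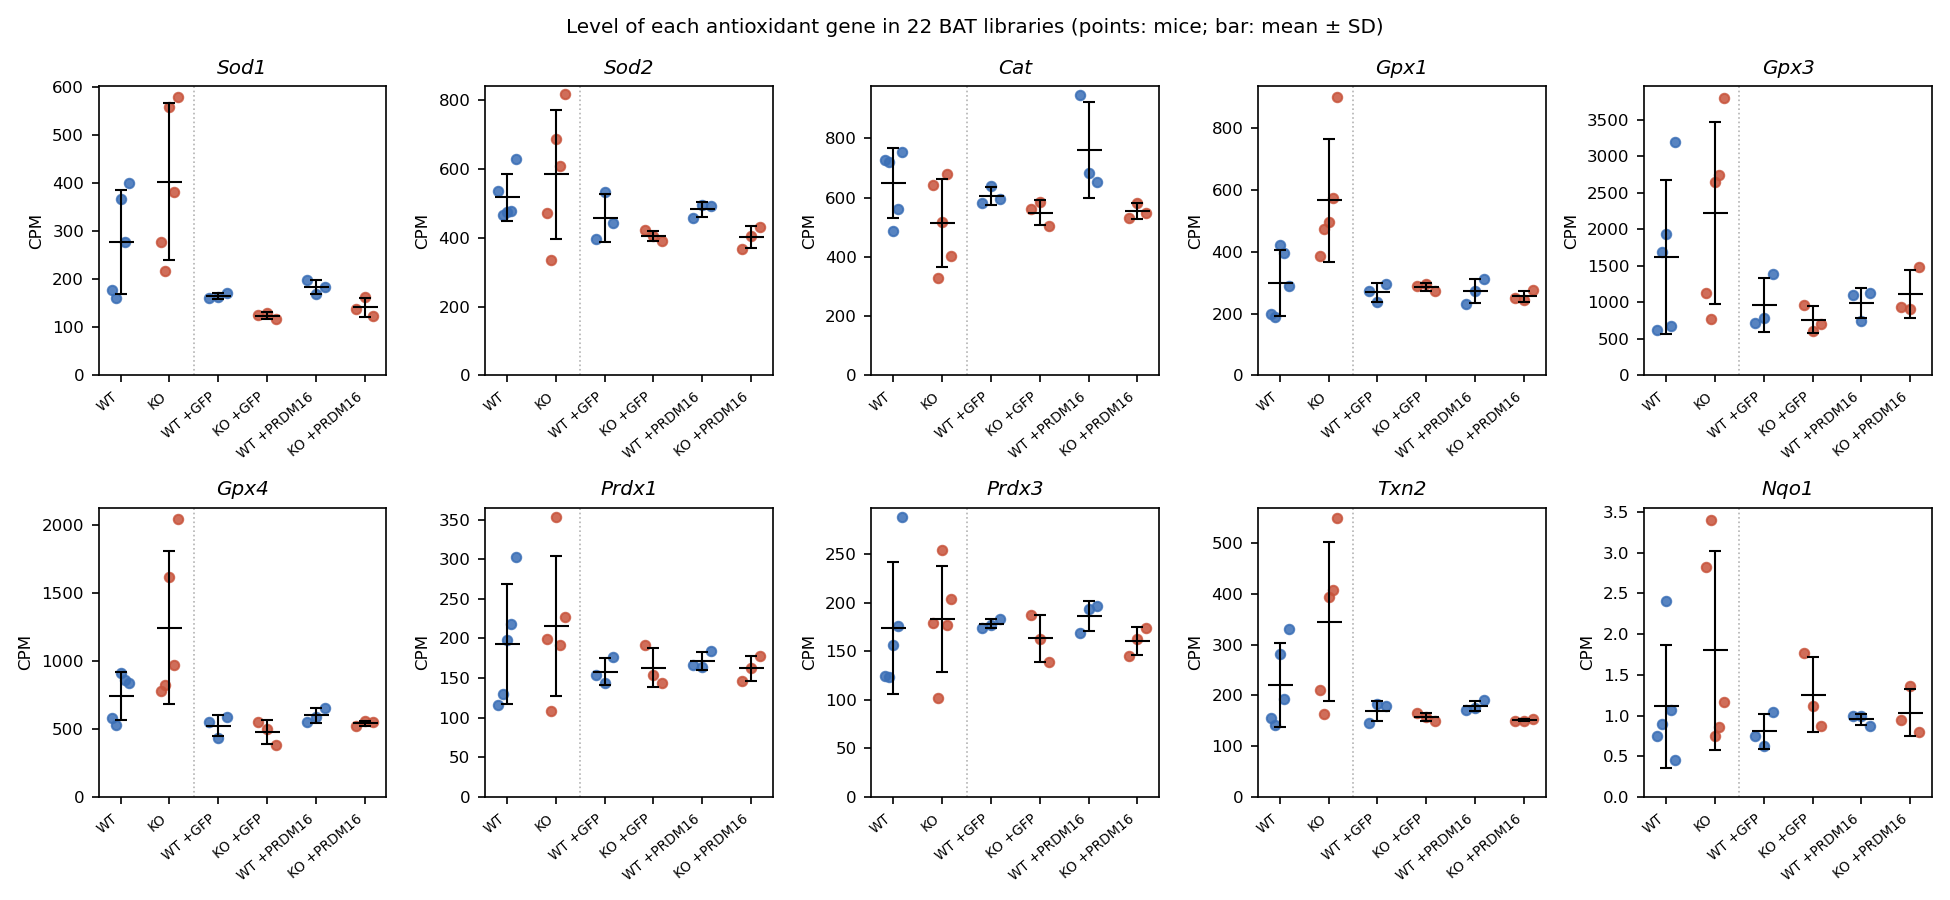
Level of each of the 10 genes in CPM (linear axes from 0), with 1 point per mouse, WT in blue and KO in red, and the mean ± SD of each group in black. *Sod1* lies at 117 to 164 CPM in the 6 KO and 162 to 199 CPM in the 6 WT libraries of the AAV cohort, and the untreated groups, left of the dotted line, are wider for most genes.

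Within a single virus, none of the 10 passed an FDR of 0.05 by edgeR. With AAV-GFP, where 0.0529% of all genes tested passed, *Sod1* had a log2FC of -0.41 (SE 0.11, FDR 0.295 by edgeR), and it was the one gene of the 10 under an unadjusted p of 0.05, beside 4.2% of all genes that were lower, and the one whose WT and KO libraries did not overlap, beside 6.88% of all genes that were lower without overlap. With AAV-PRDM16, 0.0476% of all genes passed. Here *Sod1* (log2FC -0.38, SE 0.11, edgeR FDR 0.174) and 3 more of the 10 did not overlap and were lower in KO, beside 11.2% of all genes: *Sod2*, *Cat* and *Txn2*. The same 4 were lower at an unadjusted p under 0.05, beside 6.8% of all genes. DESeq2 gave *Sod1* an adjusted p of 0.0447 with AAV-GFP and 0.0403 with AAV-PRDM16, and over all genes it called 1.58% and 4.02%. With 3 mice against 3 the exact permutation test of a single gene cannot go below p = 0.1.

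*Cat* encodes catalase, which breaks down hydrogen peroxide in peroxisomes (chr2:103453849-103485160, minus strand). With AAV-GFP it had 581, 639 and 595 CPM in WT mice, against 561, 584 and 502 CPM in KO mice. With AAV-PRDM16 it was at 945, 684 and 651 CPM in WT and at 531, 583 and 547 CPM in KO. Mouse 1 of WT + AAV-PRDM16 stood well above the other 11 libraries. The log2FC was -0.14 with AAV-GFP (SE 0.14, edgeR FDR 0.853), -0.46 with AAV-PRDM16 (SE 0.14, FDR 0.181) and -0.30 on average (SE 0.096, FDR 0.116). Without that mouse the value with AAV-PRDM16 was -0.27 (edgeR FDR 0.540). With macrophage markers as a covariate the average of *Cat* was -0.18 (edgeR FDR 0.690). DESeq2 passed *Cat* with AAV-PRDM16 (adjusted p 0.0414) and on average (0.0406). It called 4.02% and 9.93% of all genes in these comparisons.

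*Sod2* (chr17:13006846-13040063, plus strand), the manganese enzyme of the matrix, had 397, 533 and 444 CPM in WT mice given AAV-GFP, against 421, 405 and 390 CPM in KO mice given it. In WT + AAV-PRDM16 it was at 457, 496 and 493 CPM, against 368, 405 and 432 CPM in KO + AAV-PRDM16. The KO libraries ran from 368 to 432 CPM, and the lowest WT library lay among them. On average the log2FC was -0.22 (SE 0.082, edgeR FDR 0.172).

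The matrix partners of the peroxide pathway had smaller differences. *Txn2* (chr15:77915047-77929006, minus strand) was at 149, 150 and 153 CPM in KO + AAV-PRDM16, below the 172, 176 and 190 CPM of WT + AAV-PRDM16. With AAV-GFP it was at 165, 157 and 149 CPM in KO and 146, 182 and 179 CPM in WT, and these overlapped. Its average log2FC was -0.18 (SE 0.071, edgeR FDR 0.204). *Prdx3* (chr19:60864051-60874556, minus strand) was at 139 to 187 CPM in KO and 168 to 196 CPM in WT libraries over both viruses, with an average log2FC of -0.17 (SE 0.084, edgeR FDR 0.309). With macrophage markers as a covariate the average of *Prdx3* was -0.061.

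The 3 selenoprotein peroxidases showed no difference that passed the test, and the sizes that remain possible differ between them. *Gpx1* (chr9:108338903-108340343, plus strand), the main cytosolic and mitochondrial form, was at 242 to 297 CPM in KO and 232 to 311 CPM in WT libraries, with an average log2FC of 0.0019 and an approximate 95% interval from -0.17 to 0.17. *Gpx4* (chr10:80047166-80056439, plus strand), which reduces lipid peroxides in membranes, was at 382 to 558 CPM in KO and 437 to 656 CPM in WT, with an average log2FC of -0.14 and an interval from -0.35 to 0.064. *Gpx3* (chr11:54902453-54910377, plus strand) was at 614 to 1488 CPM in KO and 721 to 1396 CPM in WT. Its average log2FC was -0.088 with an interval from -0.48 to 0.30, the widest of the 3, so that a difference within that interval could not be told from none with these mice.

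*Prdx1* (chr4:116685544-116700822, plus strand), the abundant peroxiredoxin of the cytosol, was at 144 to 191 CPM in KO and 144 to 184 CPM in WT libraries, and its average log2FC of -0.016 had an interval from -0.19 to 0.16. *Nqo1* (chr8:107388225-107403206, minus strand) had 1.77, 1.12 and 0.875 CPM in KO mice given AAV-GFP, against 0.753, 0.624 and 1.04 CPM in WT mice given it. With AAV-PRDM16 the levels were 0.942, 1.36 and 0.802 CPM in KO and 0.994, 0.995 and 0.877 CPM in WT. Both pairs of groups overlapped. The log2FC of *Nqo1* was 0.63 with AAV-GFP (SE 0.33, edgeR FDR 0.612) and 0.38 on average (SE 0.23, FDR 0.431). Without mouse 1 of KO + AAV-GFP these values were 0.31 and 0.21, and with macrophage markers as a covariate 0.95 and 0.70.

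**Figure D3:**
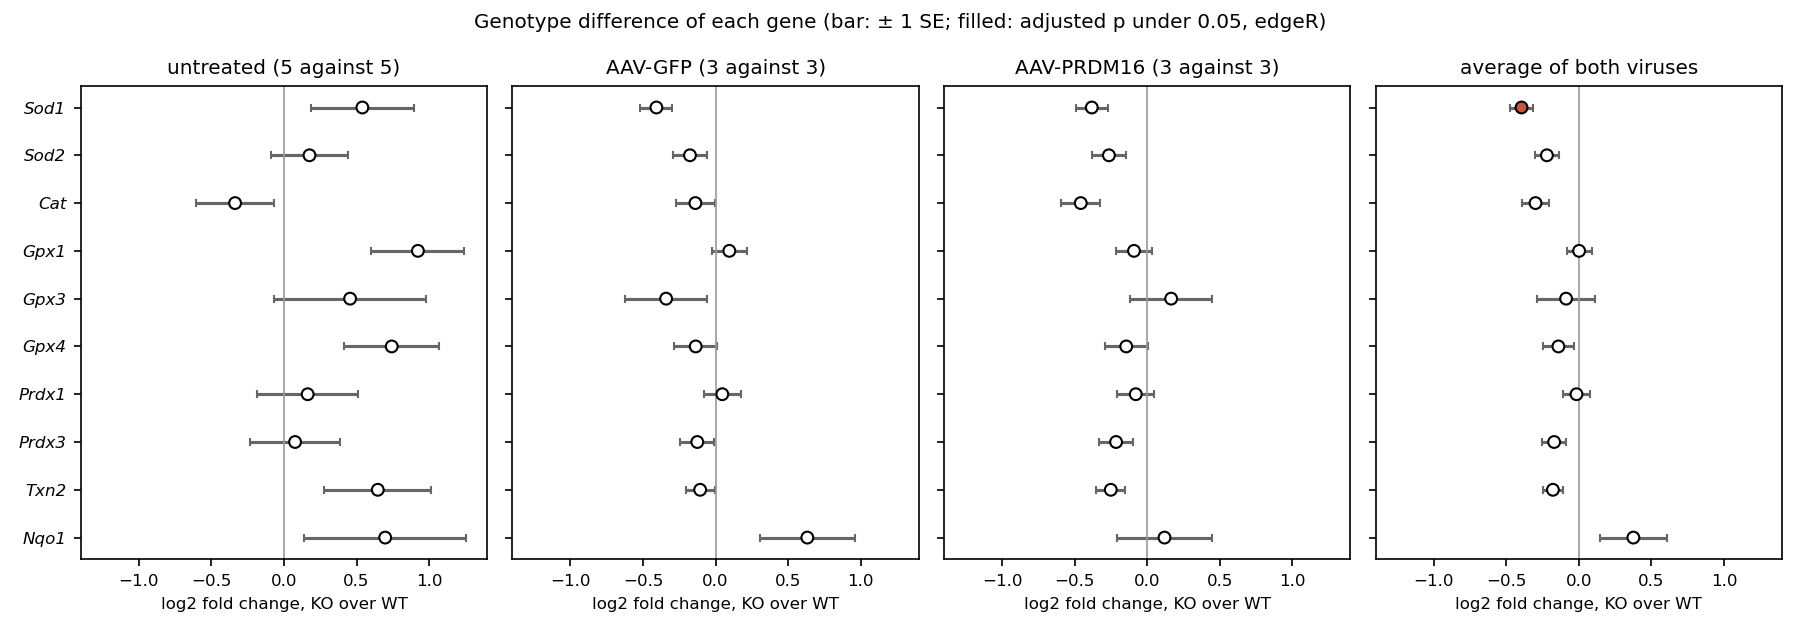
The log2 fold change of KO over WT for each gene in the untreated cohort, with AAV-GFP, with AAV-PRDM16 and averaged over both viruses, with bars of ± 1 SE. A filled point marks an adjusted p under 0.05 by edgeR, which *Sod1* alone has, in the average (-0.39, SE 0.078).

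In the untreated cohort the values pointed the other way, and none passed. Of the 10 genes 0 were called at an FDR of 0.05 by edgeR, as were 0% of the 17869 genes tested, by DESeq2 and limma-voom too. At an unadjusted p under 0.05, 2 of the 10, *Gpx1* and *Gpx4*, were higher in the libraries labelled KO, against 4.99% of all genes that were higher. The median log2FC of the 10 genes was 0.50, with 9 of 10 above 0, and that of all genes tested was 0.04. All 10 genes overlapped between the groups, where 1.4% of all genes did not. WT mice 1 and 2 stood apart from the other WT libraries: the median chi-square over genes was 11.3 between these 2, 37.1 to 52.9 between them and WT mice 3 to 5, and 13.3 to 25.7 among the latter. Among the KO libraries the median chi-square was 12.5 to 84.4, and no KO libraries were left out together. The measure is taken from raw counts and rises with library depth. WT mice 1 and 2 held the lowest WT values of *Sod1*, *Gpx1*, *Gpx4* and *Txn2*. Without them the log2FC was 0.27 for *Sod1*, 0.68 for *Gpx1*, 0.58 for *Gpx4* and 0.43 for *Txn2*, and the median of the 10 genes 0.28. Whether the genotype difference itself differed between the cohorts was not tested.

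*Gpx1* had the largest log2FC of the 10 in the untreated cohort. It was at 197, 190, 420, 396 and 289 CPM in WT mice 1 to 5 and at 386, 475, 497, 572 and 900 CPM in KO mice 1 to 5. The lowest KO library lay below the 2 highest WT libraries, and KO mouse 5 stood above all others. That lowest library was KO mouse 1, whose *Cpeb2* level (11.7 CPM) was in the WT range. The other KO libraries were at 475 CPM or more. The log2FC was 0.92 (SE 0.32, edgeR FDR 0.305), and the exact permutation test, two-sided, gave p = 0.0238 for this one gene. Erythrocyte markers, of which 7 were found and none was at 0, summed to 260, 274, 3311, 2105 and 360 CPM in WT mice 1 to 5 and to 337, 1962, 1497, 2532 and 4041 CPM in KO mice 1 to 5. The 2 WT libraries high in *Gpx1* were the 2 high in these markers, and KO mouse 5 was highest in both, and the part of the markers in the *Gpx1* and *Gpx4* differences was not tested. *Gpx4* followed, at 582, 531, 913, 862 and 843 CPM in WT and 778, 826, 1619, 969 and 2049 CPM in KO, where KO mice 3 and 5 made most of the difference (log2FC 0.74, SE 0.33, edgeR FDR 0.309). Without KO mouse 5 the log2FC of *Gpx4* was 0.49. *Gpx3* spread from 617 to 3193 CPM (median 1684) in WT and from 771 to 3803 CPM (median 2656) in KO, with a log2FC of 0.46 (SE 0.53).

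*Sod1*, lower in KO with either virus, was at 178, 162, 368, 278 and 401 CPM in untreated WT mice and at 277, 218, 560, 382 and 580 CPM in untreated KO mice. The groups overlapped widely (log2FC 0.54, SE 0.36, edgeR FDR 0.415). In both genotypes the libraries with almost no Y-linked transcripts were the high ones. WT mice 3 and 5 of that kind were at 368 and 401 CPM and the other 3 WT mice at 162 to 278 CPM, and the 4 KO mice of that kind were at 277 to 580 CPM, above the 218 CPM of KO mouse 2. *Txn2* had the same order, with 281 and 331 CPM against 142 to 192 CPM in WT, and 210 to 549 CPM against 164 CPM in KO, and a log2FC of 0.65 (SE 0.37, edgeR FDR 0.364). As 4 of 5 KO and 2 of 5 WT libraries lack those transcripts, the genotypes are unevenly spread over both kinds. A fit with a term for libraries that hold Y-linked transcripts gave a log2FC of 0.17 for *Sod1*, 0.23 for *Txn2*, 0.78 for *Gpx1* and 0.52 for *Gpx4*, and a median of the 10 genes of 0.066.

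The remaining genes of the untreated cohort differed little beside their spread. *Cat* was the one gene below 0, at 486 to 752 CPM (median 721) in WT and 330 to 678 CPM (median 518) in KO (log2FC -0.34, SE 0.27, edgeR FDR 0.488). *Sod2* was at 467 to 628 CPM in WT and 336 to 817 CPM in KO (log2FC 0.18, SE 0.27). *Prdx1* and *Prdx3* had log2FC of 0.16 (SE 0.35) and 0.077 (SE 0.31). *Nqo1* was at 2.83 and 3.40 CPM in KO mice 1 and 2 and at 0.4504 to 2.41 CPM in all other untreated libraries (log2FC 0.70, SE 0.56, edgeR FDR 0.490). These 2 KO libraries were high in markers of several other cell types. Skeletal muscle markers summed to 6203 and 7055 CPM there (next WT mouse 3, at 3449 CPM), macrophage markers to 472 and 305 CPM, fibroblast markers to 423 and 511 CPM and white adipocyte markers to 273 and 294 CPM. WT mouse 4 was also high in the last 3 lists, at 352, 578 and 223 CPM. With skeletal muscle markers as a covariate the log2FC of *Nqo1* was 0.19, and without KO mouse 2 it was 0.34; the part of the other lists was not tested.

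The transcripts of the 3 peroxidases were the richest in GC. Those of *Gpx1*, *Gpx3* and *Gpx4* have 57.2%, 56.0% and 58.8% GC, and those of *Sod2* and *Prdx1* the lowest, with 42.2% and 42.3%. When each library's trend with GC content and length was removed, the untreated log2FC of *Gpx1* went from 0.92 to 0.20, that of *Gpx4* from 0.74 to -0.17 and that of *Gpx3* from 0.46 to -0.19. Those of *Sod2* and *Prdx1* went from 0.18 to 1.04 and from 0.16 to 0.63. None of these values passed the test. In the AAV cohort the same step left the average of *Sod1* at -0.45 (FDR 0.0253 by edgeR).

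**Figure D4:**
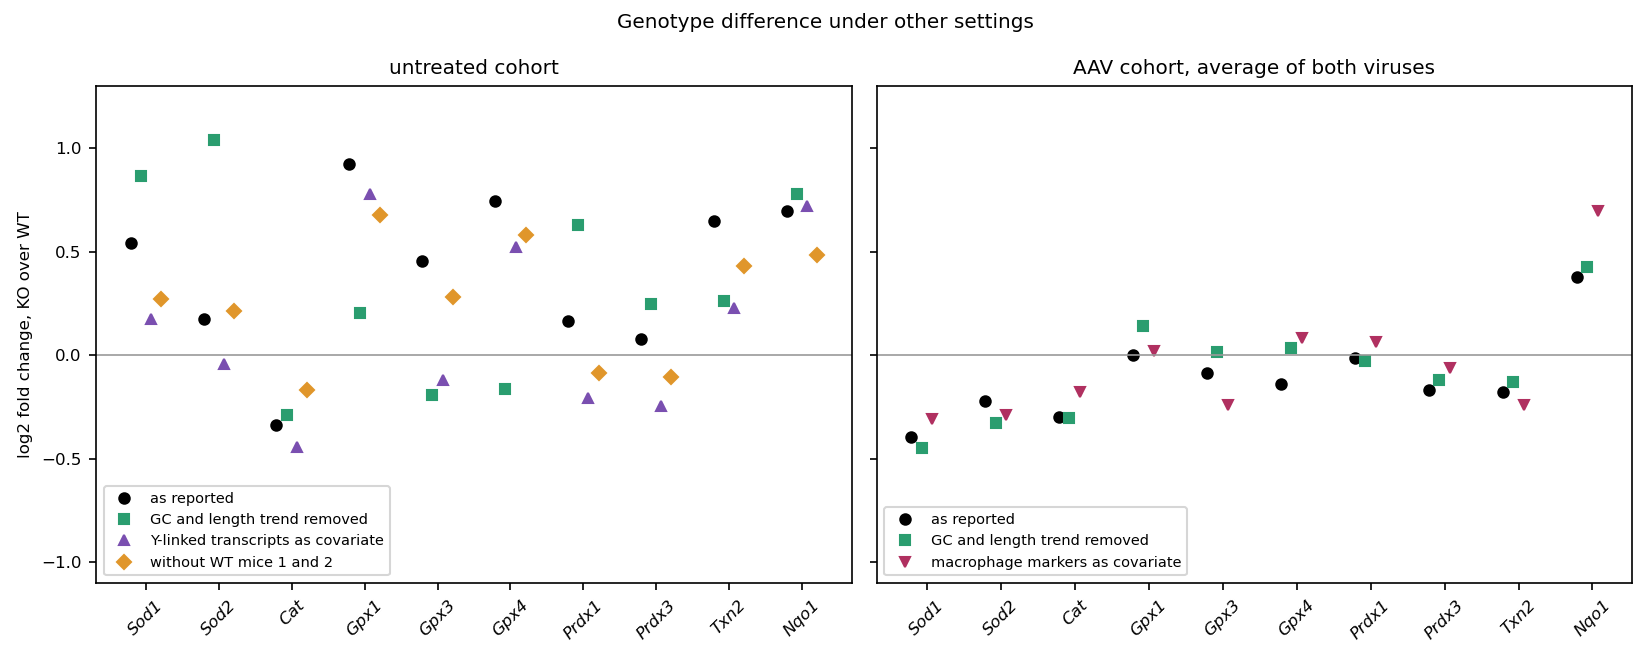
The log2 fold change of KO over WT of each gene as reported and under other settings, for the untreated cohort (left) and the average of both viruses (right). With the GC and length trend removed, the untreated values of *Gpx1*, *Gpx3* and *Gpx4* move to 0.20, -0.19 and -0.17, whereas *Sod1* in the AAV cohort stays between -0.31 and -0.45.

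None of the differences between viruses in the 10 genes passed an FDR of 0.05 by edgeR. *Prdm16* itself was at 122, 119 and 45.9 CPM in mice 1 to 3 of WT + AAV-PRDM16, and at up to 40.2 CPM with AAV-GFP. The 3rd of these mice thus had little more of it than a control. In WT mice all 10 had a log2FC (AAV-PRDM16 over AAV-GFP) above 0, with a median of 0.10 against -0.01 for all genes, and 0 passed an FDR of 0.05, as did 0% of all genes with edgeR. At an unadjusted p under 0.05 only *Cat* was higher (log2FC 0.33, SE 0.14, edgeR FDR 0.623), beside 2.1% of all genes, and its groups did not overlap, beside 6.39% of all genes that were higher without overlap. Without the mouse at 945 CPM the value was 0.15 (edgeR FDR 1). In KO mice the median was -0.01, 0 of 10 passed at either threshold (0% of all genes at an FDR of 0.05, and 6.41% at an unadjusted p under 0.05), and the largest value was that of *Gpx3* (log2FC 0.54, SE 0.28, edgeR FDR 0.928). Without KO + AAV-PRDM16 mouse 3, at 1488 CPM, the value of *Gpx3* was 0.28. DESeq2 called 0 of the 10 in either genotype, and 0.779% and 1.39% of all genes.

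Averaged over both genotypes, 0 of the 10 genes passed for the virus, beside 0.037% of all genes, and *Sod1* was the one gene under an unadjusted p of 0.05, beside 9.09% of all genes. In KO + AAV-PRDM16 against WT + AAV-GFP 0 passed as well, beside 0.00529%, and the median was -0.10. The groups of 1 gene, *Prdx3*, did not overlap in this comparison and were lower, beside 7.09% of all genes, at 145, 162 and 174 CPM against 174, 177 and 183 CPM. No interaction of genotype and virus passed for any of the 10 (smallest FDR 0.9998 by edgeR, 0% of all genes called, and 0 of 10 at an unadjusted p under 0.05, beside 3.19%), so that an unequal effect of PRDM16 in WT and KO was not detectable with 3 mice a group. DESeq2 and limma-voom called 0 of the 10 in the interaction too.

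The wider redox genes were read from lists that hold the other enzymes and cofactors of these pathways. In the average over both viruses, 19 listed genes with *Sod1* among them passed an FDR of 0.05 by edgeR. The counts of each list stand beside 1.12% of all genes that were called lower, 1.06% called higher and an all-gene median log2FC of 0.01. Among 8 tested genes of the other dismutases, glutathione peroxidases and peroxiredoxins, 1 was lower and 0 were higher: *Ccs*, which encodes the chaperone that loads copper into SOD1, had means of 18.9 CPM in KO and 24.6 CPM in WT, with no overlap between the 6 and 6 libraries (log2FC -0.38, SE 0.073, edgeR FDR 0.0261). Among 16 genes of the thioredoxin and sulfiredoxin system 1 rose and 1 fell, both of them glutaredoxins: *Glrx*, of the cytosol, had a log2FC of 0.43 (SE 0.079, edgeR FDR 0.0220) and *Glrx5*, a mitochondrial protein of iron-sulfur cluster assembly, one of -0.43 (SE 0.080, FDR 0.0225). Among 23 glutathione genes *Mgst1*, a membrane-bound glutathione transferase, was called alone, at means of 213 CPM in KO and 278 CPM in WT (log2FC -0.38, SE 0.080, edgeR FDR 0.0349).

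Of the genes that make the peroxisome or work in it, 4 of 25 fell, 0 rose, and 23 had a log2FC below 0, with a median of -0.25. The called ones were the thiolase gene *Acaa1b* (log2FC -0.81, SE 0.15, edgeR FDR 0.0207), the fatty acid transporter gene *Abcd3* (-0.44) and the import genes *Pex14* (-0.42) and *Pex6* (-0.41). Of the 34 nuclear genes of oxidative phosphorylation 8 fell, 0 rose and 33 were below 0, with a median of -0.22. *Ndufa1* of complex I (log2FC -0.61, SE 0.083, edgeR FDR 0.00838) and the complex IV genes *Cox5b* (-0.44), *Cox7a1* (-0.63) and *Cox8b* (-0.66) came first by p. Among 15 genes of enzymes that produce oxidants 2 rose and 0 fell: *Xdh*, encoding xanthine dehydrogenase, had means of 167 CPM in KO and 99.3 CPM in WT (log2FC 0.76, SE 0.15, edgeR FDR 0.0297), and *Cybb*, encoding the phagocyte NADPH oxidase subunit, 9.72 and 4.44 CPM (log2FC 1.19, SE 0.27, FDR 0.0463). The macrophage markers, of which 4 of 9 passed as higher, are given above, and their part in the *Cybb* value was not tested.

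Neither the NRF2 pathway nor selenoprotein synthesis had a called gene in this contrast. The 24 NRF2 genes had a median log2FC of -0.03 and the 15 genes of the selenium pathway one of -0.02. The most abundant NRF2 genes were *Tkt* (log2FC -0.25, edgeR FDR 0.740), the ferritin gene *Fth1* (-0.22, FDR 0.226) and *Me1* (0.20, FDR 0.851). In the selenium list they were *Selenop* (0.16, FDR 0.416), *Selenot* (0.064, FDR 0.747) and *Sephs2* (-0.11, FDR 0.721). In the untreated cohort 0 genes of any of these lists passed, and with a single virus 1 did, *Ndufa1*, lower in KO with AAV-GFP (log2FC -0.82, SE 0.12, edgeR FDR 0.0326).

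**Figure D5:**
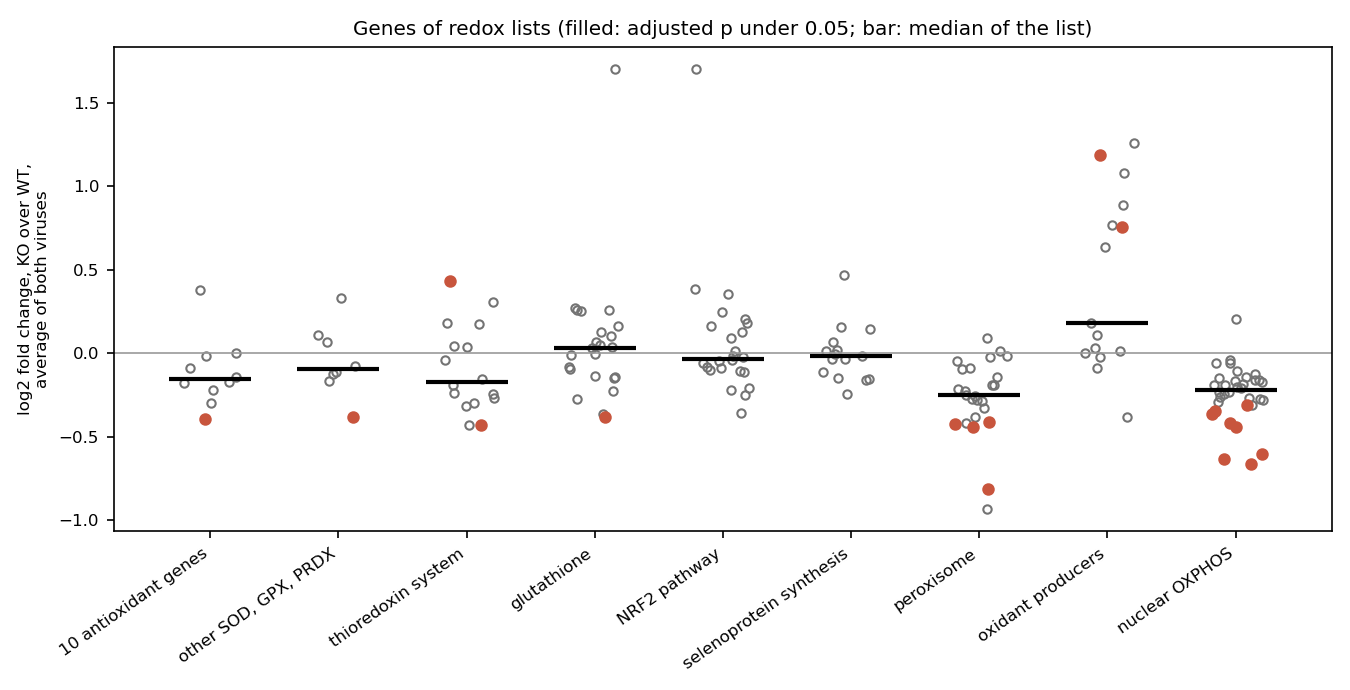
The log2 fold change of KO over WT, averaged over both viruses, for the genes of each redox list (1 point per gene, bar at the median of the list). Filled points passed an FDR of 0.05, among them 1 of the 10 antioxidant genes, 4 of 25 peroxisome genes and 8 of 34 nuclear OXPHOS genes.

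By the likeness of log2 CPM over the 12 AAV libraries, the genes nearest to *Sod1* among 13627 candidates were *Cbr1*, a carbonyl reductase gene (Pearson's r 0.96, and 0.66 over the 10 untreated libraries), and *Pebp1* (0.96 and 0.92). Nearest to *Prdx3* were *Uqcrc2* of complex III (0.97 and 0.64) and *Ndufa9* of complex I (0.94 and 0.84), and nearest to *Sod2* were *Pyurf* (0.93 and 0.94) and *Dnaja3* (0.93 and 0.63). *Cat* was nearest to *Smyd5* (0.97 and -0.28) and *Retsat* (0.96 and 0.53), *Prdx1* to *Vdac3* (0.97 and 0.27) and *Gpx4* to *Glod4* (0.96 and -0.51). The libraries share groups and scaling, and the likeness often did not carry over: in the untreated cohort r was below 0 for the nearest gene of 5 of the 10 (those of *Cat*, *Gpx1*, *Gpx4*, *Txn2* and *Nqo1*) and for 9 of the 20 genes found, 2 for each of the 10.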

How the data were processed

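RNA-seq of BAT was available for 22 mice, 1 library each, and groups were taken from the sample labels. The authors deposited raw counts per Ensembl gene for each cohort, without normalization. The submitters' processing notes name bcl2fastq 2.20, Trimmomatic 0.36, HISAT2 and the build GRCm38.p6. The counting tool, annotation, strand and treatment of duplicates are not given in the sources used here, so reads split between paralogs or pseudogenes (*Gpx4*, *Prdx1* and *Sod1* have such copies) are uncertain. GENCODE M21 matched 55227 of 55487 identifiers. Symbols with 2 identifiers were read from the one with more counts.

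Counts were analysed in R 4.3.3 with edgeR 4.0.16: filterByExpr (17869 genes untreated, 18899 AAV), TMM scaling, quasi-likelihood tests, two-sided, Benjamini-Hochberg over all genes tested. The AAV fit used all 12 libraries. CPM are per TMM-scaled library, and log2 CPM used a prior count of 2. The untreated and AAV cohorts were fitted apart. Single values were also compared by exact permutation tests of log2 CPM, whose smallest p is 0.00794 for 5 against 5 and 0.1 for 3 against 3. Approximate 95% intervals are normal intervals from the SE. Levels per kb divide CPM by the length of the principal transcript. The labels give 1 mouse per library, and p-values measure the spread between these libraries.

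Alternatives were RLE scaling, no filter, DESeq2 1.42.0, limma-voom (limma 3.58.1) with quality weights for the samples, omission of single libraries, a block for the replicate number, removal of the GC and length trend (splines of 4 degrees of freedom), only the 2 groups compared, the untreated cohort without WT mice 1 and 2, and Y-linked transcripts or muscle markers as a covariate. After the data were seen, macrophage markers as a covariate and the 6 libraries with almost no Y-linked transcripts were added. The scripts were tested on simulated data. The 10 genes and the lists were chosen with earlier results of these data known. Of each list, up to 4 called genes by smallest p are named, or otherwise up to 3 with the highest mean CPM, and for each of the 10 genes the 2 with the highest r over the AAV libraries were found.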

Additional observations from a re-analysis of the deposited data

How the results depend on the processing

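Under every setting *Sod1* stayed lower in KO in the average over both viruses, with log2 fold changes (log2FC) from -0.31 to -0.45. The number of the 10 genes called there, 1 as reported, was 2 with DESeq2 (*Sod1* and *Cat*) and 0 with macrophage markers as a covariate, and between 0 and 1 with one mouse left out. With DESeq2 1 of the 10 genes was called with AAV-GFP and 2 with AAV-PRDM16. Limma-voom called 1 with AAV-PRDM16, beside 2.88% of all genes. With either virus edgeR called 0, and the cause of the difference between tools was not tested. Of the values of single genes under settings other than leaving out a mouse, 436 kept their direction and side of the threshold, 28 reversed, 5 newly passed and 1 no longer did. Single genes were recomputed for 6 of the 9 comparisons. All reversals were of values that had not passed, and their cause was not tested. Over all genes, DESeq2 called 240 with AAV-GFP, 626 with AAV-PRDM16 and 1584 in the average, where edgeR called 10, 9 and 412. Limma-voom called 12, 545 and 1269 in the same order.

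The replicate numbers showed no pairing of the mice. Deviations of same-numbered libraries correlated at -0.09 to 0.15 in the AAV and at -0.29 to 0.11 in the untreated cohort. Those of differently numbered libraries correlated at -0.23 to 0.21 in the AAV and at -0.36 to 0.29 in the untreated cohort. A pairing by litter or in another order was not tested. With the replicate number as a block *Sod1* was still called in the average (log2FC -0.40, edgeR FDR 0.0448), and over all genes 344 were called there, 1 with AAV-GFP and 5 with AAV-PRDM16.

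In the untreated cohort, with Y-linked transcripts as a covariate, the median was 0.066 and the values of *Sod2*, *Gpx3*, *Prdx1* and *Prdx3* were -0.043, -0.12, -0.21 and -0.25. Removal of the GC and length trend gave -0.19 for *Gpx3* and -0.17 for *Gpx4*. Without WT mice 1 and 2, *Prdx1* and *Prdx3* were at -0.087 and -0.11, and in the 6 libraries with almost no Y-linked transcripts *Prdx1*, *Prdx3* and *Nqo1* were at -0.018, -0.10 and -0.021. With the GC trend removed, KO over WT of *Gpx4* was 0.034 with AAV-GFP, 0.032 with AAV-PRDM16 and 0.033 on average, of *Gpx1* 0.055 with AAV-PRDM16 and of *Gpx3* 0.015 on average. The same step turned AAV-PRDM16 over AAV-GFP of *Gpx1* in WT to -0.021 and of *Sod2* and *Prdx1* in KO to 0.0099 and 0.016. With macrophage markers as a covariate *Gpx4* was at 0.094, 0.073 and 0.084 in the same 3 genotype comparisons and *Prdx1* at 0.064 on average. Limma-voom gave -0.0029 for *Prdx1* with AAV-GFP, -0.014 for *Gpx1* on average, -0.025 for *Gpx3* between viruses in WT and -0.051 for *Cat* between viruses in KO, and without the filter *Gpx1* was at -0.0018 on average.

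With one mouse left out at a time, the following values changed sign at least once. In the untreated cohort *Prdx1* ran from -0.088 to 0.38 and *Prdx3* from -0.072 to 0.34. There *Gpx3* kept its sign but ran from 0.17 (without KO mouse 5) to 0.86 (without WT mouse 5), *Txn2* was at 0.41 without KO mouse 5 and *Cat* at -0.19 without KO mouse 2. Between genotypes with AAV-GFP *Gpx3* ran from -0.55 to 0.017 and *Prdx1* from -0.082 to 0.13, and with AAV-PRDM16 *Gpx1* from -0.20 to 0.016, *Gpx3* from -0.10 to 0.29 and *Nqo1* from -0.13 to 0.27. On average *Gpx1* ran from -0.051 to 0.055, *Gpx3* from -0.22 to 0.091 and *Prdx1* from -0.082 to 0.027. Between viruses in WT *Sod2* ran from -0.020 to 0.20, *Gpx1* from -0.086 to 0.13, *Gpx3* from -0.14 to 0.39 and *Txn2* from -0.013 to 0.14. Between viruses in KO *Sod2* ran from -0.068 to 0.046, *Cat* from -0.053 to 0.058, *Prdx1* from -0.091 to 0.13, *Prdx3* from -0.13 to 0.087 and *Nqo1* from -0.52 to 0.060.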
